A study of Quercus x morisii and Quercus suber and Quercus ilex with 16 samples.

Results

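Genes of jasmonate metabolism matched to LOX3 (locus LOC112001646), CYP94B1 (LOC112020942) and CYP94B3 (LOC112005217) were followed through outer bark of cork oak, of hybrids and of holm oak. Each of these 3 loci, of the 47292 in the expression table, is matched to its Arabidopsis gene by the supplementary tables of the study. LOC111985820 and LOC112018950 also match LOX3 but were not among the 3, and they are given further below. All 3 passed the filter on low values, a mean of at least 1 over the 16 libraries, and were tested among 25617 loci. CYP94B3 passed it through rhytidome, since its mean was below 1 in each of the other barks. The study had picked both CYP94B loci, which it lists with suberin genes, out of genes that it found to differ between these same barks, so their direction here is not independent evidence of that difference.

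RNA was sequenced from 16 samples of outer bark of the trunk, 4 for each of 4 barks. Cork came from 4 trees of cork oak (Quercus suber), whose bark is a single thick periderm and had never been stripped. Cork-like bark was sampled on all 4 sides of a single hybrid tree (1 to north, 1 to south, 1 to east, 1 to west), a backcross with cork oak. Rhytidome-like bark came from 4 hybrids of holm oak and cork oak, which form a rhytidome, a layered bark in which thin periderms alternate with dead phloem. Rhytidome came from 4 trees of holm oak (Quercus ilex). The trees grew wild and carried no treatment. The material was scraped from the inner face of the bark. Per the study it held the dividing layer of the periderm and living corky cells, and in rhytidome-like bark and rhytidome also living secondary phloem. The tissue sampled thus differed between barks. With the exception of cork-like bark each sample was a tree of its own, so p-values that involve cork-like bark do not cover the spread between trees of that kind.

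Jasmonates are lipid hormones made by plants on wounding, attack and in the course of development. Lipoxygenases such as LOX3 oxygenate plastid fatty acids at the head of the pathway, allene oxide synthase and cyclase form the ring, and OPR3 reduces it in the peroxisome. The active form is the conjugate of jasmonic acid with isoleucine, which releases JAZ repressors of the TIFY family from their targets. In Arabidopsis, CYP94B1 and CYP94B3 are cytochromes P450 that hydroxylate this conjugate and so lower its activity, and enzymes of the CYP94 family can also hydroxylate fatty acids.

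Expression is given as rlog, a regularized log2 of the read counts scaled for depth, so a difference of 1 is a doubling. The rlog draws loci with few reads together, so fold changes of low loci are understated, and it is not corrected for gene length, so levels are not compared between genes. A differentially expressed gene (DEG) had, by limma, an adjusted p below 0.01 together with a log2 fold change beyond 1 in size. In bulk bark, fewer cells of a type and less RNA per cell cannot be told apart.

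Libraries are given in the order 87, 89, 90 and 91 for cork, 1 to 4 for cork-like bark, 14, 18, 20 and 21 for rhytidome-like bark, and 33, 67, 68 and 94 for rhytidome. LOX3 was highest in rhytidome, in every library. It had rlog values of 7.49, 7.96, 8.34 and 9.18 for cork, 6.29, 6.18, 7.32 and 7.05 for cork-like bark, 7.81, 7.94, 8.03 and 7.72 for rhytidome-like bark, and 10.62, 11.10, 12.37 and 12.59 for rhytidome. The lowest rhytidome library thus lay above the highest library of any other bark. The means were 8.24 ± 0.72 for cork, 6.71 ± 0.56 for cork-like bark, 7.88 ± 0.14 for rhytidome-like bark and 11.67 ± 0.96 for rhytidome (SD, n = 4 each). The 4 rhytidome-like trees were closest together and all lay within the range of cork. The cork-like libraries lay below all others.

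CYP94B1 was also highest on average in rhytidome, with a wider spread than LOX3 in each bark. Its rlog was 3.73, 6.19, 3.60 and 4.66 for cork, 3.08, 2.59, 3.40 and 4.02 for cork-like bark, 5.29, 5.76, 3.90 and 3.26 for rhytidome-like bark, and 8.23, 7.23, 7.09 and 4.21 for rhytidome. Rhytidome libraries 33, 67 and 68 stood above the other 13 libraries. Library 94, which had the highest LOX3 value of all, was eighth of 16 for CYP94B1 and lay among the cork and rhytidome-like libraries. The means were 4.54 ± 1.20 for cork, 3.27 ± 0.60 for cork-like bark, 4.55 ± 1.17 for rhytidome-like bark and 6.69 ± 1.73 for rhytidome (SD, n = 4 each).

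CYP94B3 was near the floor of the table outside rhytidome. It had 0.38, 0.88, 0.39 and 0.84 for cork, 0.87, 1.26, 0.37 and 0.85 for cork-like bark, and 1.20, 1.25, 0.46 and 0.37 for rhytidome-like bark, against 3.83, 2.76, 2.77 and 3.22 for rhytidome. All 4 rhytidome libraries lay above the other 12. The means were 0.62 ± 0.27 for cork, 0.84 ± 0.36 for cork-like bark, 0.82 ± 0.47 for rhytidome-like bark and 3.14 ± 0.50 for rhytidome (SD, n = 4 each), and the order of the 3 low barks is within their spread.

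**Figure D1:**
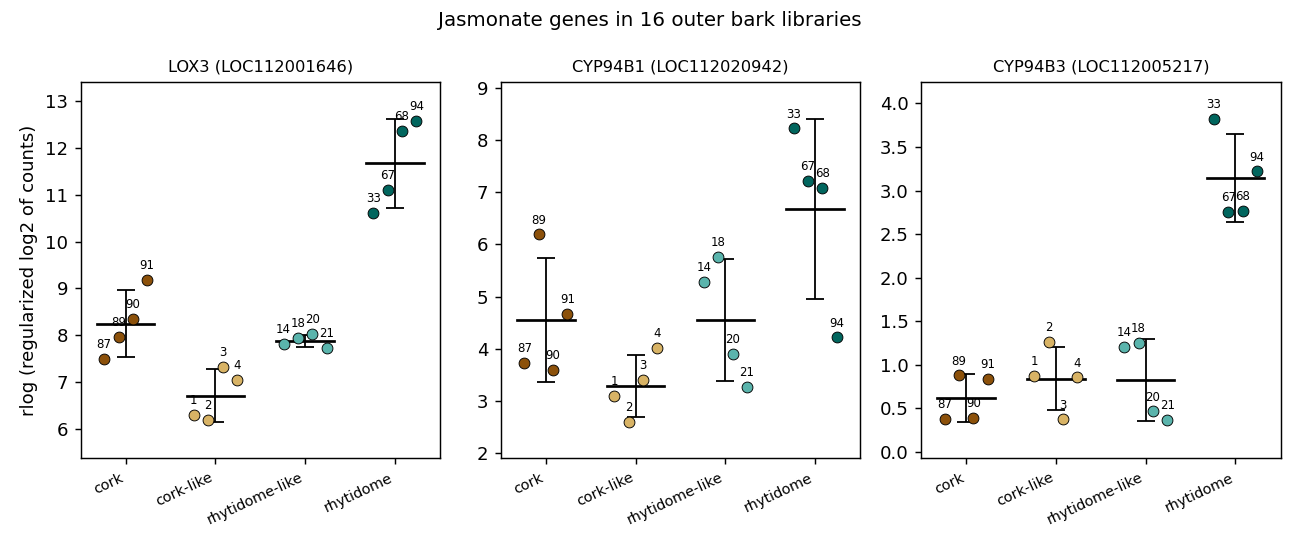
Expression of LOX3, CYP94B1 and CYP94B3 (rlog, vertical axes, each with its own range) in cork, cork-like, rhytidome-like and rhytidome bark. Points are libraries with their numbers, lines are means and bars are ± 1 SD (n = 4). Rhytidome lies above all other libraries for LOX3 and CYP94B3, whereas rhytidome 94, at 4.21, falls among the other barks for CYP94B1.

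To find which of these orders exceeded the spread, the barks were compared in pairs. Between cork and rhytidome, the barks of the parental species, LOX3 was 10.8-fold lower in cork (log2 fold change -3.43, SE 0.43, adjusted p 1.1e-05, limma) and CYP94B3 was 5.75-fold lower (-2.52, SE 0.31, adjusted p 9.9e-06). CYP94B1 had a log2 fold change of -2.15 (SE 0.81) and did not pass (adjusted p 0.037, limma). Thus 2 of the 3 genes were DEGs, both lower in cork, where 17.7% of all loci tested were. Because CYP94B3 entered the test through rhytidome, where it is high, this count and those below that set a bark against rhytidome are a description. Without rhytidome 94, CYP94B1 passed as well (-2.97, adjusted p 0.0027, limma). RNA integrity differed between the barks, and with it as a covariate, added after seeing the data, neither LOX3 (-2.22, adjusted p 0.25) nor CYP94B3 (-3.01, adjusted p 0.042, limma) passed between cork and rhytidome, so that integrity and bark cannot be told apart in this pair. Both kept their calls with that covariate in cork-like bark over rhytidome (LOX3 -4.40, adjusted p 3.0e-04, CYP94B3 -2.53, adjusted p 0.0019, limma).

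Cork-like bark differed from rhytidome in all 3 genes. LOX3 was 31.2-fold lower in cork-like bark (log2 fold change -4.96, SE 0.43, adjusted p 6.5e-07), a change matched in size by 1.28% of loci. CYP94B1 was 10.7-fold lower (-3.42, SE 0.81, adjusted p 0.0034, limma) and CYP94B3 4.94-fold lower (-2.30, SE 0.31, adjusted p 4.0e-05, limma). All 3 were therefore DEGs lower in cork-like bark, as were 11.9% of loci. The CYP94B1 call was lost without cork-like 1 or 2 or without rhytidome 33, 67 or 68 (adjusted p 0.011 to 0.013, limma), and with the 4 cork-like samples averaged to 1 tree it had an adjusted p of 0.14 and CYP94B3 one of 0.016, while LOX3 still passed.

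In rhytidome-like bark, although a rhytidome in structure, LOX3 and CYP94B3 were also lower than in that of holm oak. LOX3 was 13.9-fold lower in rhytidome-like bark (log2 fold change -3.80, SE 0.43, adjusted p 1.0e-05, limma), a size reached by 1.43% of loci, and CYP94B3 had a log2 difference of -2.32 (SE 0.31, adjusted p 4.8e-05, limma). CYP94B1 had one of -2.14 (SE 0.81, adjusted p 0.050, limma) and, among fits that leave out a library, passed only without rhytidome 94 (-2.96, adjusted p 0.0043, limma). Here 2 of 3 genes were DEGs lower in rhytidome-like bark, against 12% of all loci. With RNA integrity as a covariate, LOX3 (-3.97, adjusted p 2.0e-05) and CYP94B3 (-2.25, adjusted p 1.9e-04, limma) remained DEGs in this pair.

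Among cork, cork-like and rhytidome-like bark none of the 3 genes was a DEG in any pair by limma, and LOX3 was the only one with an unadjusted p under 0.05, in 2 of the 3 pairs. This compares with 13.9% of loci between cork and cork-like bark, 31.7% between cork and rhytidome-like bark and 27.3% between cork-like and rhytidome-like bark. CYP94B3 was near the floor in all 3 barks, where the rlog is drawn together, so its part of this count does not show that they are alike. The LOX3 libraries of cork and cork-like bark did not overlap, and those means were 2.89-fold apart (log2 fold change 1.53, SE 0.43, adjusted p 0.013, limma). Nor did those of cork-like and rhytidome-like bark overlap (-1.17, SE 0.43, adjusted p 0.036, limma). The first of these differences passed without cork 87 (1.78, adjusted p 0.0090), without rhytidome 33 (1.53, adjusted p 0.0075) or without rhytidome 94 (1.53, adjusted p 0.0088, limma), the last 2 by a smaller estimate of the spread. With the cork-like samples averaged to 1 tree, LOX3 was a DEG in neither of these pairs (1.53 and -1.17).

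Between cork and rhytidome-like bark the fitted differences were small for all 3 genes, but the intervals were not. The log2 fold change of LOX3 was 0.37 (95% interval -0.55 to 1.28), that of CYP94B1 -0.01 (-1.73 to 1.71) and that of CYP94B3 -0.20 (-0.87 to 0.47). A difference of 3-fold in either direction thus lies inside the interval of CYP94B1. Both barks were near the floor for CYP94B3, where the rlog is drawn together, so its interval does not bound the fold in transcripts. With RNA integrity as a covariate the log2 fold changes in this pair were 1.76 for LOX3 (SE 1.21, adjusted p 0.42) and -3.66 for CYP94B1 (SE 2.15, adjusted p 0.34, limma).

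**Figure D2:**
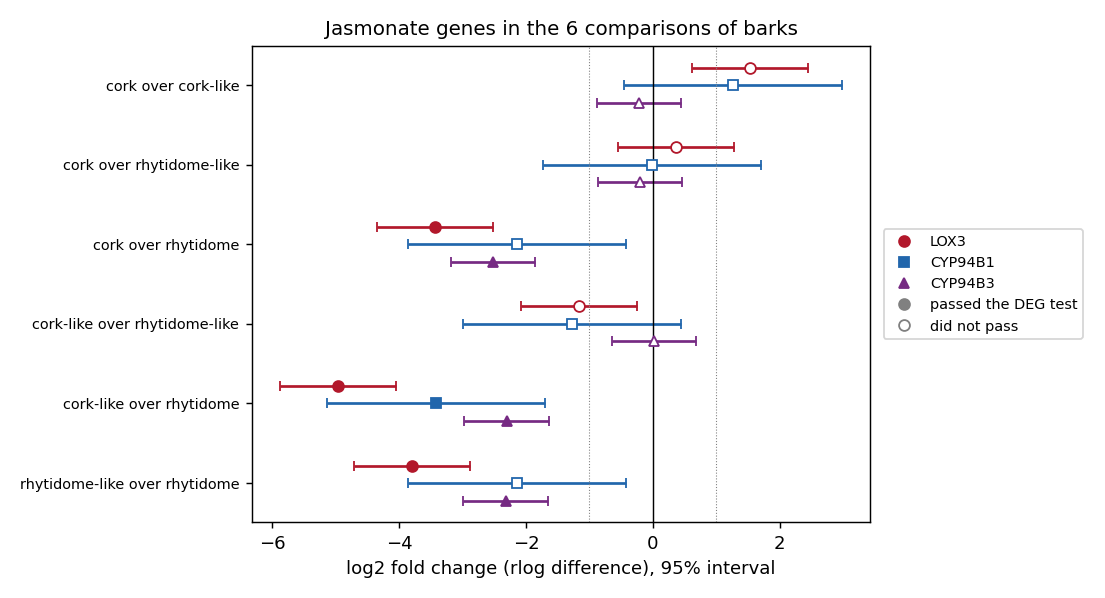
Log2 fold changes (horizontal axis) of LOX3, CYP94B1 and CYP94B3 in the 6 comparisons of barks, with 95% intervals from limma. Filled symbols passed the DEG test. The dotted lines mark 1 and -1. All 7 DEGs are on the side of rhytidome, in the 3 comparisons that contain it.

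The hybrids were also set against the mean of the parents, in which the rlog means of cork and rhytidome have equal weight. The cork-like tree is a backcross with cork oak, so equal weights do not mirror its parentage. Its differences from that mean are a description and not a departure from an expected level. In cork-like bark LOX3 was 9.50-fold below the parental mean (log2 difference -3.25, SE 0.37, adjusted p 2.2e-05, limma) and in rhytidome-like bark 4.23-fold below it (-2.08, SE 0.37, adjusted p 2.8e-04, limma). CYP94B3 was lower than the parental mean as well, with a log2 difference of -1.04 in cork-like bark (SE 0.27, adjusted p 0.0092) and -1.06 in rhytidome-like bark (SE 0.27, adjusted p 0.0047, limma). CYP94B1 had -2.34 in cork-like bark (SE 0.70, adjusted p 0.019) and -1.06 in rhytidome-like bark (SE 0.70, adjusted p 0.24, limma), and passed only in cork-like bark when rhytidome 94 was left out (adjusted p 0.0025, limma). The LOX3 call ended in cork-like bark with the 4 samples averaged to 1 tree (adjusted p 0.032), and in rhytidome-like bark with a treat test above 1 (adjusted p 0.0497) or with RNA integrity (adjusted p 0.019, limma). In the fit given first, 2 of 3 genes were DEGs below the parental mean in each hybrid bark. This compares with 5.74% of loci for cork-like bark and 13.7% for rhytidome-like bark. CYP94B3 entered the test through rhytidome and was near the floor in cork and both hybrid barks. Its place below the parental mean therefore follows from its level in rhytidome, and the count is a description. The CYP94B3 values stand at the threshold of 1 and lost their call under 5 of 9 alternatives for cork-like bark and 6 of 9 for rhytidome-like bark. Leaving out a library ended the first in 10 of 16 fits (-1.18 to -0.89) and the second without rhytidome-like 20 (-0.94), rhytidome-like 21 (-0.91) or rhytidome 33 (-0.95).

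The difference of cork and rhytidome was then tested against that of cork-like and rhytidome-like bark. For CYP94B3 the parental difference was more negative by -2.54 (SE 0.44, adjusted p 5.7e-04, limma), from a difference of -2.52 between the parental barks and of 0.02 between the hybrid barks. For LOX3 it was more negative by -2.26 (SE 0.61, adjusted p 0.0097, limma), and that call was lost in 13 of the 16 fits that leave out a library, where the value lay between -2.61 and -1.96. It was kept without cork 91, rhytidome 33 or rhytidome 67. For CYP94B1 the value was -0.87 (SE 1.14, adjusted p 0.58, limma). So 2 of 3 genes passed, beside 12.3% of loci in this direction, but for CYP94B3 both hybrid barks lay near the floor and the value follows its difference between cork and rhytidome. With the cork-like samples averaged to 1 tree neither LOX3 (adjusted p 0.094) nor CYP94B3 (adjusted p 0.024, limma) passed. In all, 9 of 10 alternatives ended the LOX3 call and 4 of 9 that of CYP94B3.

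The other genes of the pathway came from a list of 69 Arabidopsis genes, ordered by role. Of these, 9 had a match, at 13 loci including the 3 above, and all 13 were tested. Matches are known only for 918 loci, and the supplementary rows at hand begin with lipid genes, so most of the list could not be looked at. Loci matched to the same Arabidopsis gene may share near-identical reads, and since only uniquely mapped pairs were counted, the split between them is uncertain. Of the 10 loci besides LOX3, CYP94B1 and CYP94B3, 7 were DEGs lower in cork than in rhytidome, as were 17.7% of all loci, and 7 were lower in cork-like bark than in rhytidome, as were 11.9%. In rhytidome-like bark 4 were DEGs lower than in rhytidome, against 12% of all loci. These counts include JMT, which like CYP94B3 entered the test through rhytidome, so they are a description. With the 4 cork-like samples averaged to 1 tree, the count over all 13 loci in cork-like bark over rhytidome was 3, against 10 with the samples apart. In cork-like bark 4, and in cork 3, were lower than in rhytidome-like bark, against 11.7% and 15.4% of all loci in those directions. None was a DEG between cork and cork-like bark, where 4 of the 10 had an unadjusted p under 0.05 by limma, and none was a DEG in the opposite direction in any pair. Without cork 87, LOX3 and 1 other of the 13 loci were DEGs between cork and cork-like bark, and without cork-like 1 or 3 or rhytidome-like 14 or 20 the count between cork-like and rhytidome-like bark was 2. With RNA integrity as a covariate 0 of the 13 loci passed between cork and rhytidome or between cork and rhytidome-like bark. Between cork-like bark and rhytidome 6 passed. This covariate raised the SE of LOX3 in cork over rhytidome from 0.43 to 1.07. The share of all loci that passed with it was not computed, so a loss particular to these loci is not shown.

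The medians of the log2 fold changes over all 13 loci were 0.30 in cork over cork-like bark, -0.38 in cork over rhytidome-like bark and -2.73 in cork over rhytidome. They were -0.54 in cork-like over rhytidome-like bark, -2.41 in cork-like bark over rhytidome and -2.14 in rhytidome-like bark over rhytidome. Over all loci tested the same medians lay between -0.16 and 0.05. The highest mean was that of rhytidome at 10 of the 13 loci (76.9%) and at 26.6% of all loci, and that of rhytidome-like bark at the other 3. The list was drawn up with earlier results of these data known, so this count is a description. Loci named below beyond the 2 other LOX3 matches and the DEGs with a mean rlog of at least 5 were chosen after their values were seen.

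Of the lipoxygenases, both other LOX3 matches were highest in rhytidome, like LOX3 itself. LOC111985820 averaged 2.54 ± 0.56 for cork, 1.47 ± 0.59 for cork-like bark, 3.44 ± 0.97 for rhytidome-like bark and 5.34 ± 0.42 for rhytidome (rlog, SD, n = 4 each). It was a DEG lower in each of the other barks than in rhytidome, with log2 fold changes of -2.80 for cork, -3.87 for cork-like bark and -1.90 for rhytidome-like bark (adjusted p 1.6e-04, 1.4e-05 and 0.0052, limma). LOC112018950 averaged 3.54 ± 0.55 for cork, 3.97 ± 0.40 for cork-like bark, 4.24 ± 1.08 for rhytidome-like bark and 6.39 ± 0.32 for rhytidome, and was likewise lower than in rhytidome, with log2 fold changes of -2.85 for cork, -2.41 for cork-like bark and -2.14 for rhytidome-like bark (adjusted p 1.4e-04, 8.2e-04 and 0.0023, limma). For both loci no library of another bark reached the lowest rhytidome library.

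The loci matched to LOX2, the lipoxygenase that supplies much of the jasmonate of wounded Arabidopsis leaves, showed different patterns. LOC111990529 had 2.17, 0.60, 0.58 and 1.55 for cork, 2.86, 1.73, 1.88 and 3.57 for cork-like bark, 1.97, 0.65, 1.43 and 1.86 for rhytidome-like bark, and 5.56, 8.62, 4.91 and 10.62 for rhytidome. Rhytidome was thus both highest and most spread, over 5.71 log2 units. The log2 fold changes over rhytidome were -6.21 for cork, -4.92 for cork-like bark and -5.95 for rhytidome-like bark (adjusted p 7.5e-05, 8.2e-04 and 2.1e-04, limma). LOC111990528 was again highest in rhytidome, from 2.49 to 6.40, but its range overlapped that of cork, which reached 2.90. Only cork-like bark passed against rhytidome (-2.84, adjusted p 0.0069, limma). Cork (-2.54, adjusted p 0.0105) and rhytidome-like bark (-2.70, adjusted p 0.0106, limma) had changes of like size and narrowly missed the threshold.

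LOC111990533, the third LOX2 match, separated both cork-type barks from both rhytidome-type barks. It had 9.38, 9.03, 9.61 and 8.99 for cork and 7.19, 9.55, 10.46 and 8.56 for cork-like bark, against 13.15, 12.73, 13.19 and 12.28 for rhytidome-like bark and 11.48, 11.99, 12.29 and 12.72 for rhytidome. No library of cork or cork-like bark reached those of the rhytidome-type barks. The log2 fold change over rhytidome-like bark was -3.58 for cork and -3.90 for cork-like bark (adjusted p 2.0e-05 and 1.3e-05, limma), and over rhytidome it was -2.87 for cork and -3.18 for cork-like bark (adjusted p 2.3e-04 and 1.5e-04, limma). In rhytidome-like over rhytidome bark it was 0.72 (SE 0.50, adjusted p 0.28, limma), where LOX3 had -3.80.

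LOX6, a further lipoxygenase of jasmonate synthesis, was low in 3 of the 4 cork libraries. LOC111983719 had 8.33, 3.78, 3.97 and 4.59 for cork, 7.37 to 8.24 for cork-like bark, 7.11 to 8.42 for rhytidome-like bark and 7.86 to 8.75 for rhytidome. Cork 87 lay within the range of rhytidome, apart from the other 3 cork trees. The log2 fold change of cork was -2.77 over rhytidome-like bark and -3.11 over rhytidome (SE 0.73, adjusted p 0.0050 and 0.0024, limma).

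**Figure D3:**
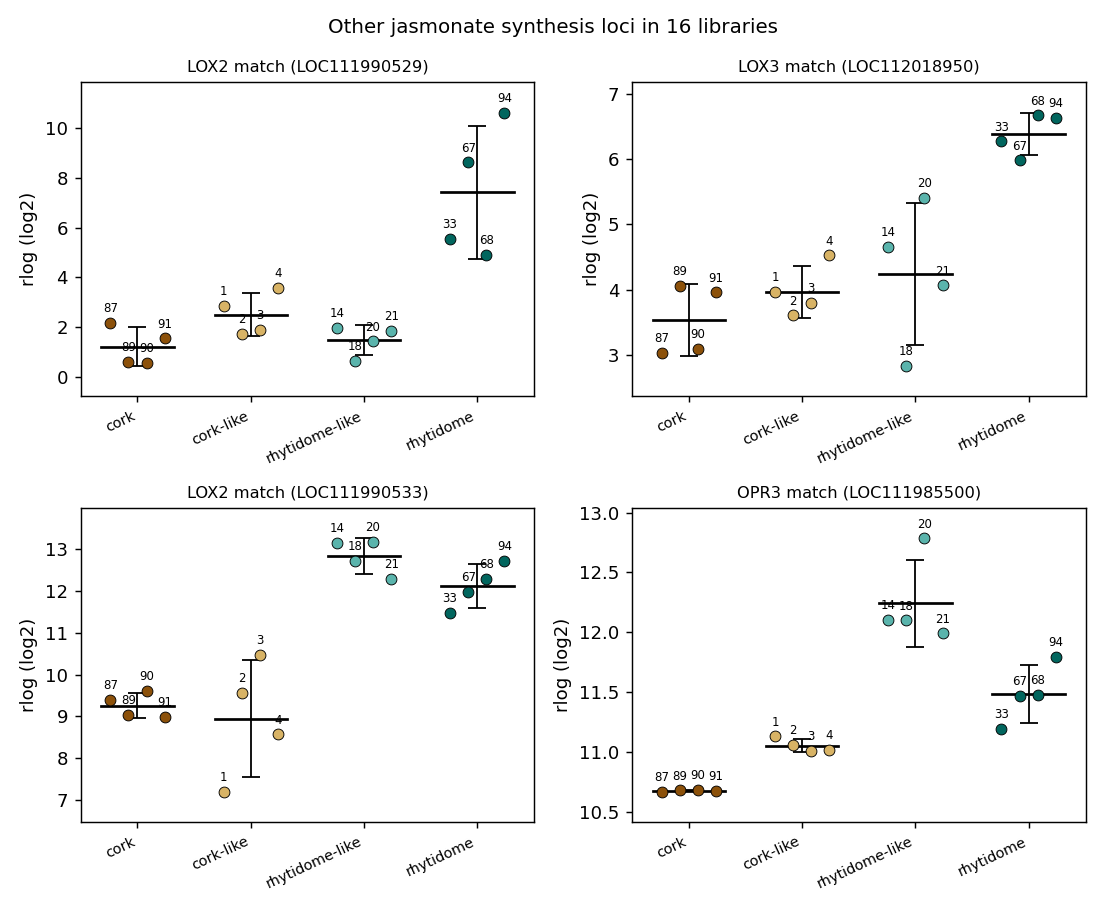
Expression (rlog, vertical axes, each with its own range) of the LOX2 matches LOC111990529 and LOC111990533, the LOX3 match LOC112018950 and the OPR3 match LOC111985500 in the 4 barks. Points are libraries with their numbers, lines are means and bars are ± 1 SD (n = 4). The left upper locus spreads from 4.91 to 10.62 for rhytidome, while the 2 lower ones have their highest means, 12.84 and 12.24, in rhytidome-like bark.

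Of the later steps of synthesis, the allene oxide cyclase match AOC4 (LOC112015607) averaged 2.06 ± 0.78 for cork, 1.44 ± 0.43 for cork-like bark, 2.93 ± 0.44 for rhytidome-like bark and 3.76 ± 0.40 for rhytidome. It was lower than in rhytidome in cork (-1.70, adjusted p 0.0021) and cork-like bark (-2.32, adjusted p 2.7e-04, limma), and lower in cork-like than in rhytidome-like bark (-1.49, adjusted p 0.0056, limma). OPR3 (LOC111985500) averaged 10.67 ± 0.01 for cork, 11.05 ± 0.06 for cork-like bark, 12.24 ± 0.36 for rhytidome-like bark and 11.48 ± 0.24 for rhytidome. It was lower than in rhytidome-like bark in cork (-1.57, SE 0.16, adjusted p 6.5e-07) and cork-like bark (-1.19, SE 0.16, adjusted p 1.6e-05, limma). Its difference in cork over rhytidome, -0.81, had an adjusted p of 5.7e-04 by limma but stayed within the fold change threshold.

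Relative to the parental mean, the synthesis loci of rhytidome-like bark were split. LOC111990533 (LOX2, 2.15, adjusted p 7.9e-04) and OPR3 (1.17, adjusted p 4.9e-06, limma) were DEGs above the parental mean, whereas LOX3 was below it. In cork-like bark the DEGs among the 10 other loci were all below the parental mean, namely AOC4 (-1.47), LOC111990533 (-1.75) and LOC111985820 (-2.47, adjusted p 4.3e-04, limma). The same shares over all loci were 9.3% above in rhytidome-like bark and 5.74% below in cork-like bark.

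Outside synthesis and inactivation only 2 loci of the list had a match. JMT (LOC112011027), matched to the enzyme that methylates jasmonic acid to the volatile ester, had 0.30 to 0.87 for cork, 0.82 to 1.23 for cork-like bark and 0.41 to 1.66 for rhytidome-like bark, against 1.36, 5.77, 2.66 and 3.46 for rhytidome. Like CYP94B3 it passed the filter through rhytidome, so its differences are a description, and the lowest rhytidome library lay below the highest rhytidome-like one. Its log2 fold change over rhytidome was -2.73 for cork, -2.36 for cork-like bark and -2.35 for rhytidome-like bark. TIFY8 (LOC111983015), of the family that includes the JAZ repressors, was a DEG in none of the 6 comparisons, and its means lay between 10.02 and 10.57.

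Fatty acid oxygenation outside the jasmonate branch was represented by 3 loci. HPL1 (LOC111999205), matched to hydroperoxide lyase, which turns lipoxygenase products into aldehydes, averaged 7.09 for cork, 7.77 for cork-like bark, 8.56 for rhytidome-like bark and 9.68 for rhytidome, and was a DEG lower in cork (-2.59, adjusted p 1.3e-05) and cork-like bark (-1.91, adjusted p 3.3e-04, limma) than in rhytidome. The alpha-DOX2 matches LOC112027093 and LOC112038937, alpha-dioxygenases, were DEGs lower in cork than in each of the other barks. Against rhytidome their log2 fold changes in cork were -2.79 and -2.26 (adjusted p 9.0e-05 and 1.1e-04, limma). The 3 loci were thus also lower in cork than in rhytidome, so in that pair the direction was not limited to loci of jasmonate metabolism. In cork-like bark over rhytidome the alpha-DOX2 matches were not DEGs (-0.43 and -0.21, adjusted p 0.47 and 0.68, limma). Nor were they in rhytidome-like bark over rhytidome, where both values were positive (0.69 and 0.78, adjusted p 0.24 and 0.11, limma).

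**Figure D4:**
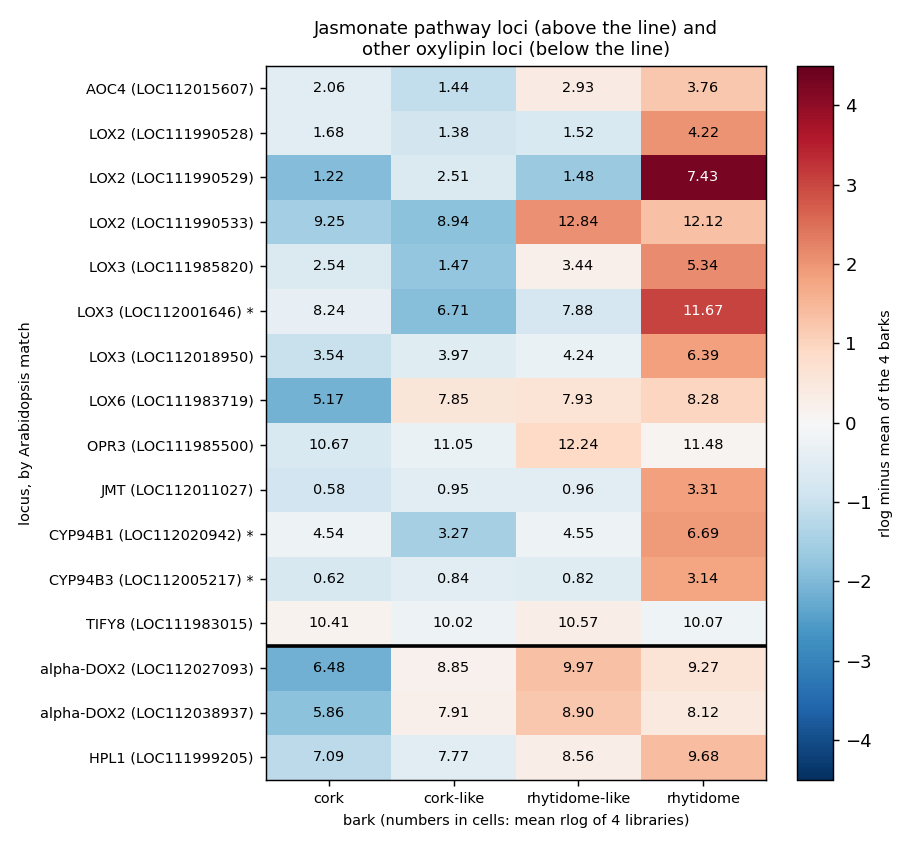
Mean rlog of 4 libraries (numbers in cells) of the 13 jasmonate pathway loci and, below the line, 3 loci of other fatty acid oxygenation, in cork, cork-like, rhytidome-like and rhytidome bark. Colour gives the difference from the mean of the 4 barks at each locus, and stars mark LOX3, CYP94B1 and CYP94B3. Rhytidome has the highest mean at 10 of the 13 loci.

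Over the 16 libraries, Pearson's r was 0.81 between LOX3 and CYP94B3, 0.72 between CYP94B1 and CYP94B3 and 0.65 between LOX3 and CYP94B1. The libraries share their barks, so these values are given as a description. The 5 loci most like LOX3 had r of 0.95 to 0.97, with LOC112011869 (0.97) and LOC111996957 (0.96) first, and none has a name here. For CYP94B3 the 5 had 0.94 to 0.96, led by LOC112024043 (0.96). For CYP94B1 they had 0.84 to 0.88, led by LOC111982924 (0.88), matched to a protein with an RNA-binding S4 domain.

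Among the 568 tested loci with an Arabidopsis match, a choice made after seeing the data, LOX3 was most like LOC112030173 (r 0.95), LOC112033345 (0.94) and LOC112005607 (0.93). LOC112030173 and LOC112005607 both match fatty acid desaturase 8, which makes the plastid fatty acid that jasmonates derive from in Arabidopsis. LOC112030173 averaged 5.61 ± 0.15 for cork, 5.26 ± 0.22 for cork-like bark, 5.50 ± 0.23 for rhytidome-like bark and 7.49 ± 0.66 for rhytidome, and LOC112005607 averaged 6.37 for cork, 6.01 for cork-like bark, 6.23 for rhytidome-like bark and 8.15 for rhytidome. LOC112033345, an alpha/beta-hydrolase, averaged 2.57 ± 0.81 for cork, 1.19 ± 0.44 for cork-like bark, 1.13 ± 0.32 for rhytidome-like bark and 5.78 ± 1.94 for rhytidome. For CYP94B3 the first named loci were LOC112029433, matched to cellulase 2 (r 0.90), and LOC112028925, matched to ATP-citrate lyase B-1 (0.89).

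The barks also differed in markers of their corky cells. The mean rlog of 9 suberin genes of phellem, the corky cell layer, ran from 13.83 to 14.40 for cork, 12.97 to 13.21 for cork-like bark, 7.20 to 9.03 for rhytidome-like bark and 10.96 to 11.55 for rhytidome. The study names these genes among those higher in cork-type barks of these same libraries, so the counts that follow are a description. Of the 9, 4 were DEGs higher in cork than in cork-like bark and 8 higher in cork than in rhytidome. In cork-like bark 8 were higher than in rhytidome, and in rhytidome-like bark all 9 were lower, as were 12% of all loci. Between cork and cork-like bark 13.9% of all loci were DEGs in either direction. The shares of all loci that were higher are not given here, so the counts of higher markers are not set against them. None was at 0 in any bark, with a lowest single value of 1.55 in rhytidome-like bark. LOX3 and CYP94B3 were highest in rhytidome, whose phellem markers lay below those of cork and cork-like bark and above those of rhytidome-like bark. Phloem and xylem markers could not be matched, and the part of cell makeup in the jasmonate results was not tested. The medians of the libraries differed by -0.37 in rhytidome-like bark over rhytidome and by between -0.23 and 0.26 in the other pairs, and centring them did not change a call of LOX3 or CYP94B3 over rhytidome.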

How the data were processed

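Libraries of 100-base paired reads were made from outer bark RNA of 16 samples. Per the labels and the methods of the study, the authors removed 12 bases with Trimmomatic 0.40, used GSNAP to map reads of both species and the hybrids to CorkOak1.0, a cork oak genome, kept uniquely mapped pairs, collapsed isoforms, counted with HTSeq 0.11.1 and used DESeq2 1.38.3. Cufflinks 2.2.1 is named without a role, with the strand setting not given in the sources used here. The deposited values are regularized log2 (rlog) of counts, scaled for depth by the authors, from -2.29 to 20.05. Counts were not used here, so depth per locus is unknown, no counting error is given and limma replaced a count test.

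From these values limma 3.58.1 (R 4.3.3) was fitted with 1 mean for each bark over all 16 libraries and a variance trend, on 25617 loci whose rlog averaged at least 1, after a test on simulated data. Adjusted p-values are Benjamini and Hochberg's within a comparison, and 95% intervals use the moderated degrees of freedom. Groups came from sample titles. Names are Arabidopsis matches in supplementary tables of the study, of which 1218 rows of the longest were at hand. Named genes are the 3 members, other loci of the same match, up to 4 DEGs per role with a mean rlog of at least 5, and the 5 loci most correlated with each member. The members, the pathway list and the markers were chosen with earlier results of these data known. Figures were drawn in Python 3.11.15 with matplotlib 3.10.9. Alternatives changed the filter, variance estimate, libraries, normalization, covariates and test.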

Additional observations from a re-analysis of the deposited data

Results flagged for a closer look

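Within barks, 5 of 64 sets of 4 libraries had 1 library far from the other 3 by Dixon's criterion, which chance meets in about 1 in 20 sets. None of the 5 was at LOX3, CYP94B1 or CYP94B3. Rhytidome-like 20 was high for OPR3 (12.78, next library 12.10), TIFY8 (10.84, next 10.50) and HPL1 (9.09, next 8.45). Rhytidome 68 was high for alpha-DOX2 LOC112027093 (10.30, next 9.06), and cork 87 was low for HPL1 (5.95, next 7.37).

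The difference of cork and rhytidome departed from that of cork-like and rhytidome-like bark at 5 of the 16 pathway and comparison loci by limma. It was more negative between the parents by -2.26 for LOX3 (adjusted p 0.0097), -2.54 for CYP94B3 (adjusted p 5.7e-04), -7.24 for LOX2 LOC111990529 (adjusted p 9.5e-04), -2.58 for LOX3 LOC112018950 (adjusted p 0.0075) and -1.80 for HPL1 (adjusted p 0.0079, limma). In this direction 12.3% of all loci passed. CYP94B3 entered the test through rhytidome and was near the floor in both hybrid barks, so its value follows its difference between cork and rhytidome. All these fits take the 4 cork-like samples, all of 1 tree, as replicates. With them averaged to 1, LOX3 (adjusted p 0.094) and CYP94B3 (adjusted p 0.024, limma) did not pass.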

How the results depend on the processing

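Of the refitted or retested fold changes 645 kept their side of the threshold, 63 lost a call, 12 gained one and 0 called values reversed. The tally includes exact permutation tests, where a call needed only an unadjusted p below 0.05 and a log2 fold change beyond 1 in size. Values that were not called could change sign. Between cork and rhytidome, and between rhytidome-like bark and rhytidome, LOX3 and CYP94B3 kept their calls under every alternative but RNA integrity as a covariate in the first pair (-2.22 and -3.01). With that covariate the SE of LOX3 was 1.07 in cork over rhytidome, against 0.43 without it, and 0.62 in cork-like bark over rhytidome. In cork over rhytidome integrity and bark cannot be told apart. In cork-like bark over rhytidome, averaging the cork-like samples to 1 ended the calls of CYP94B1 (-3.42) and CYP94B3 (-2.30), and a treat test above 1 that of CYP94B1 (-3.42).

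LOX3 became a DEG in cork over cork-like bark with quantile normalization (1.65), median centring (1.66) or mapped reads as a covariate (2.03), and in cork-like over rhytidome-like bark when only those barks were fitted (-1.17). It was a DEG in neither pair with the cork-like samples averaged to 1 tree (1.53 and -1.17), with treat or with RNA integrity (2.18 and -0.43). In both pairs the exact two-sided permutation test (1.53 and -1.17) gave p 0.0286, the smallest that 4 against 4 allow. That test takes the 4 cork-like samples of 1 tree as replicates, so its p does not cover the spread between trees. The pathway count, for which shares of all loci were not computed under the alternatives, was 1 between cork and cork-like bark with quantile normalization, median centring or mapped reads. It fell to 0 between cork and rhytidome-like bark and between cork and rhytidome with RNA integrity, and to 3 between cork and rhytidome with a filter at a mean rlog of 5, which removes low loci. Between cork-like and rhytidome-like bark it was 2 with that filter, 1 with averaged cork-like samples or treat, and 0 with RNA integrity. Between cork-like bark and rhytidome it was 2, 3, 5 and 6 with the filter, averaging, treat and RNA integrity, and between rhytidome-like bark and rhytidome 1 with the filter and 3 with only those barks, quantile normalization or treat.

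Below the parental mean in cork-like bark, the calls ended for LOX3 with averaging (-3.25) and for CYP94B3 without the filter, with robust variances, averaging or treat (-1.04 each) or RNA integrity (-1.02). In rhytidome-like bark they ended for LOX3 with treat (-2.08) or RNA integrity (-2.86), and for CYP94B3 without the filter, with averaging or treat (-1.06 each), quantile normalization (-0.86), median centring (-0.80) or RNA integrity (-0.74). In parents against hybrids, the LOX3 call ended without the filter, without the trend, with robust variances, averaging or treat (-2.26 each), quantile normalization (-2.11), median centring (-1.77), mapped reads (-1.39) or RNA integrity (-1.79). That of CYP94B3 ended with quantile normalization (-1.54), mapped reads (-2.10), averaging or treat (-2.54 each). The cause of these changes was not tested.

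Leaving out 1 library at a time gave LOX3 1.22 to 1.78 in cork over cork-like bark and 0 to 2 pathway DEGs there, 2 to 4 DEGs between cork-like and rhytidome-like bark, and for CYP94B1 -2.97 to -1.63 in cork over rhytidome, -4.24 to -2.90 in cork-like bark over rhytidome, -2.96 to -1.62 in rhytidome-like bark over rhytidome and -2.76 to -2.07 for cork-like bark against the parental mean. CYP94B3 ranged from -1.18 to -0.89 and from -1.20 to -0.91 against the parental mean in cork-like and rhytidome-like bark, and LOX3 from -2.61 to -1.96 in parents against hybrids.

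The likeness lists kept 1, 0 and 2 of 5 loci for LOX3, CYP94B1 and CYP94B3 with Spearman's rho and 4, 2 and 4 with quantile normalization. CYP94B1 and CYP94B3 have no value at the stricter filter, fits to only the barks compared have none for the parental mean, and matching by product name was not run. RNA integrity was added after seeing the data. No paired analysis was possible because the barks share no library numbers.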
